A study of Mus musculus with 31 samples.

Results

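Type 2 conventional dendritic cells (cDC2) were compared with CD11c-negative macrophages, both sorted from uninjured mouse hearts in the steady state (SS). The comparison used 8 of the 31 RNA-seq libraries of the series, chosen by their titles, with 4 libraries of SS cDC2 and 4 of SS CD11c-negative cells. All were of Balb/c mice aged 8 to 12 weeks, with no genetic change given. The labels call the CD11c-negative population both macrophages and CD11c-negative monocyte-derived cells, and it is called macrophages here. The hearts were taken apart with the enzymes Liberase and DNase, and FACS separated the cells. The labels do not name the antibodies of the sort, the sex of the mice or whether hearts were pooled for a library, so p-values measure the spread between these libraries. The rest of the series holds SS cDC1, SS CD11c-positive monocyte-derived cells (moDCs) and the same populations after myocardial infarction (MI), made by lasting closure of the left anterior descending artery.

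Dendritic cells take up antigen, carry it to lymph nodes through the chemokine receptor CCR7 and present it to T cells. The cDC2 subset depends on the growth factor receptor FLT3 and on the transcription factor IRF4, and it presents peptides on MHC class II molecules mainly to CD4+ T cells. Resident cardiac macrophages depend on the receptor CSF1R and on the transcription factor MAF, and they are known for clearing dying cells, scavenging proteins and recycling iron within the tissue.

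Reads per gene were scaled to CPM, the counts of a gene among 1000000 reads of its library, and each value below is a CPM level or a log2 difference of cDC2 over macrophages. A mean is given ± SD over 4 libraries, and a log2 difference ± SE. The 8 libraries held 9571370 to 11187159 reads in genes. Of 13039 genes tested in edgeR's quasi-likelihood model, 4595 (35.2%) passed an adjusted p of 0.05, 2488 (19.1%) higher in cDC2 and 2107 (16.2%) lower. Each count of list members below is to be read beside these shares. The lists were chosen with earlier results of these data known, so their counts and medians are descriptions and no independent support. By at least 2-fold, 1125 genes were higher and 1256 lower, and by at least 8-fold 411 and 352. The median log2 difference over all genes was -0.0634, and its quartiles were -0.67 and 0.48. The 4 cDC2 and the 4 macrophage libraries did not overlap for 32.6% of the genes tested. The first principal component of log2 CPM over the 8 libraries (57.0% of the variance) lay at 72.4 to 79.5 in cDC2 and at -82.5 to -72.7 in macrophages. The second component (11.5%) put the libraries numbered 1 and 4 of both populations below 0 and those numbered 2 and 3 above 0. The numbers 1 and 4 also had the larger share of reads in no gene, at 11.6% to 16.9% against 6.42% to 9.26% in numbers 2 and 3. Within numbers 1 and 4 alone 3308 genes passed, and within numbers 2 and 3 alone 3220. Of the 4595 genes, 4589 lay on the same side of 0 in both of these subsets and 2253 passed in both. The 4595 were called with the libraries of both subsets in the fit, so the shared side is no independent replication.

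The lineage genes of both cell types followed the labels. The gene of the sorting marker CD11c, Itgax (chromosome 7, 128129547 to 128150657, plus strand), had 489, 569, 684 and 665 CPM in the cDC2 libraries, against 11.3, 5.20, 5.30 and 8.15 CPM in the macrophage libraries. The growth factor receptor gene Flt3 (chromosome 5, 147330741 to 147400489, minus strand) had 78.1, 67.6, 51.6 and 86.9 CPM in the cDC2 libraries, against 1.14, 0.294, 0.674 and 0.291 CPM in the macrophage libraries. The transcription factor gene Zbtb46, which marks conventional dendritic cells (chromosome 2, 181387762 to 181459426, minus strand), had 29.0, 30.1, 35.9 and 45.1 CPM in the cDC2 libraries, against 4.38, 1.08, 6.84 and 4.37 CPM in the macrophage libraries. Since the gate used CD11c, the level of Itgax is given as a description. Flt3 was 116-fold higher (log2 difference 6.85 ± 0.38 SE, adjusted p = 3.38e-14) and Zbtb46 8.38-fold higher (3.07 ± 0.27, 1.11e-10). Of 20 shared dendritic cell genes tested, 19 were higher in cDC2 and 1, the metalloprotease gene Adam19 (35.2 ± 8.14 CPM in cDC2 and 82.5 ± 19.4 in macrophages), was lower. Their median log2 difference was 4.60, against -0.0634 over all genes. Among them were Dpp4, coding for the peptidase CD26 (235 ± 44.4 CPM in cDC2 and 1.95 ± 1.78 in macrophages, 119.6-fold), and the stem cell factor receptor gene Kit (41.0 ± 14.8 CPM in cDC2 and 0.955 ± 1.85 in macrophages, 42.8-fold). Haao, an enzyme gene of the kynurenine pathway (59.5 ± 5.53 CPM in cDC2 and 0.921 ± 0.327 in macrophages, 64.0-fold), and H2-Oa, a chain of the class II modulator DO (50.1 ± 7.85 CPM in cDC2 and 0.193 ± 0.385 in macrophages, 245-fold), were higher too. All macrophage reads of H2-Oa were in replicate 3. Adam19 did not pass within libraries numbered 2 and 3 (adjusted p = 0.0825). Dpp4 had a log2 difference of 7.57 without macrophage replicate 3. Kit had a log2 difference of 9.87 without macrophage replicate 2.

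**Figure D1:**
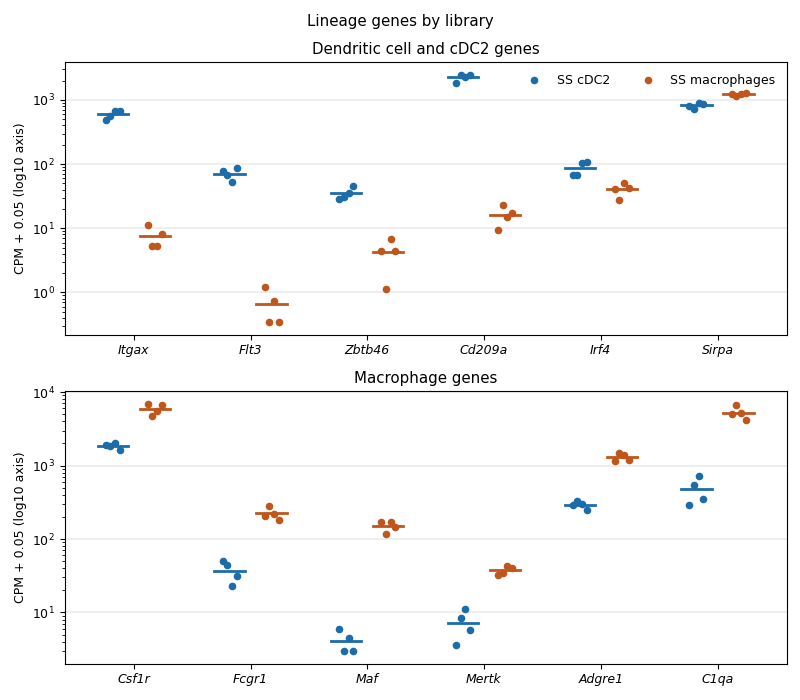
Levels of 12 lineage genes in each library, in CPM on a log10 axis with 0.05 added to each value, for SS cDC2 (left of each pair) and SS macrophages (right), where each point is a library and each bar is the mean of 4. The upper row holds dendritic cell and cDC2 genes and the lower row macrophage genes, and Sirpa is the gene whose difference did not pass the test (adjusted p = 0.117).

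Of 20 cDC2 marker genes tested, 13 were higher in cDC2, 0 were lower and 7 did not pass. The lectin gene Cd209a had 1844, 2428, 2282 and 2474 CPM in the cDC2 libraries, against 9.44, 22.7, 14.7 and 17.2 CPM in the macrophage libraries. Cd209a was 141-fold higher (log2 difference 7.14 ± 0.43 SE, adjusted p = 7.01e-13). Irf4 (86.9 ± 22.3 CPM in cDC2 and 40.2 ± 9.82 in macrophages, 2.16-fold) was higher (adjusted p = 1.00e-03), and the libraries did not overlap. Cd24a (164 ± 24.4 CPM in cDC2 and 1.79 ± 1.76 in macrophages, 91.2-fold), S100a4 (196 ± 41.5 CPM in cDC2 and 14.9 ± 3.17 in macrophages, 13.2-fold) and the inhibitor gene Tnip3 (356 ± 115 CPM in cDC2 and 14.1 ± 3.30 in macrophages, 25.3-fold) were higher. The integrin gene Itgam, coding for CD11b (904 ± 80.2 CPM in cDC2 and 423 ± 104 in macrophages, 2.14-fold), was higher (adjusted p = 3.18e-06). Some markers by which cDC2 are often told from cDC1 did not pass the test against macrophages. Sirpa had 826 ± 76.7 CPM in cDC2 and 1233 ± 61.1 in macrophages (adjusted p = 0.117), the lectin gene Mgl2 1247 ± 327 CPM in cDC2 and 699 ± 94.0 in macrophages (0.0840) and Klf4 133 ± 36.9 CPM in cDC2 and 107 ± 40.5 in macrophages (0.288). All macrophage libraries lay above the cDC2 libraries for Sirpa. Sirpa passed with only the 8 libraries fitted (adjusted p = 0.00314). Mgl2 passed with only the 8 libraries fitted (adjusted p = 0.00582), within libraries numbered 2 and 3 (0.0358) and without cDC2 replicate 1 (0.0466). Klf4 passed without macrophage replicate 1 (adjusted p = 0.0352). Cd24a had a log2 difference of 7.34 without macrophage replicate 4.

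Of 19 macrophage marker genes tested, 0 were higher in cDC2, 15 were lower and 4 did not pass (median log2 difference -1.69). Csf1r had 1896, 1831, 2005 and 1636 CPM in the cDC2 libraries, against 6951, 4664, 5537 and 6775 CPM in the macrophage libraries. It was 3.25-fold lower in cDC2 (log2 difference -1.70 ± 0.17 SE, adjusted p = 1.32e-09), and the lowest cDC2 library was far above the 4 SS cDC1 libraries, at 64.1 ± 12.8 CPM. The transcription factor gene Maf had 5.89, 2.98, 4.49 and 2.90 CPM in the cDC2 libraries, against 169, 116, 172 and 144 CPM in the macrophage libraries, a 36.8-fold lower level (log2 difference -5.20 ± 0.37 SE, adjusted p = 2.90e-12). The libraries of the populations did not overlap for either gene. Adgre1, coding for F4/80 (292 ± 33.3 CPM in cDC2 and 1308 ± 164 in macrophages, 4.49-fold), the high-affinity Fc receptor gene Fcgr1 (36.9 ± 12.5 CPM in cDC2 and 223 ± 44.7 in macrophages, 6.03-fold) and the engulfment receptor gene Mertk (7.20 ± 3.31 CPM in cDC2 and 37.6 ± 4.51 in macrophages, 5.23-fold) were lower. The lysozyme gene Lyz2 (19548 ± 5504 CPM in cDC2 and 17876 ± 2721 in macrophages, adjusted p = 0.625), Cd68 (626 ± 68.2 CPM in cDC2 and 716 ± 83.7 in macrophages, 0.152) and Cd14 (2013 ± 689 CPM in cDC2 and 2479 ± 295 in macrophages, 0.341) did not pass. These are bulk libraries, so fewer cells of a type and less RNA per cell cannot be told apart. Cd68 passed with upper-quartile factors in edgeR (adjusted p = 0.0414) and within libraries numbered 1 and 4 (0.0182). Cd14 passed within libraries numbered 1 and 4 (adjusted p = 0.0161).

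Among the genes with the largest differences, those higher in cDC2 were near 0 in macrophages. The chemokine gene Ccl17 had 15.7, 29.3, 87.5 and 38.6 CPM in the cDC2 libraries, against 0.0953, 0, 0 and 0 CPM in the macrophage libraries (1729-fold, 309.9 to 68344). The aquaglyceroporin gene Aqp3 had 7.85, 10.9, 12 and 21.2 CPM in the cDC2 libraries and 0 reads in all macrophage libraries (at least 182-fold higher, against 3 reads over the group). Ccdc170 and the connexin gene Gjb2 also had 0 macrophage reads, and were at least 143-fold and at least 141-fold higher. Gjb2 varied widely among cDC2 libraries (18.6, 13.9, 5.58 and 2.81 CPM). Upb1, an enzyme gene of pyrimidine breakdown, had 63.0, 95.9, 99.5 and 70.4 CPM in the cDC2 libraries, against 0, 0, 0 and 0.582 CPM in the macrophage libraries and was 524-fold higher (log2 difference 9.03 ± 0.73 SE, adjusted p = 1.48e-10). The others named by rule were the tight junction gene Cldn1 (1305-fold, 234 to 51590), the septin gene Sept3 (1211-fold, 217 to 47858), the lectin gene Clec4g (829-fold, 148 to 32803), Cyp2s1 (792-fold, 142 to 31310.5), the inhibitory receptor gene Btla (652-fold, 180.1 to 5390), Epcam (534-fold, 95.5 to 21150) and the adaptor gene Grap2 (420.0-fold, 74.9 to 16629.6). Intervals are exact 95% intervals of the ratio of summed reads and cover counting error only. There were 24 genes with at least 10 CPM in every cDC2 library and under 1 CPM in every macrophage library, and 4 genes of the opposite kind. All macrophage reads of Upb1 were in replicate 4.

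The largest differences in the other direction included genes of the resident cardiac macrophage list, namely Cbr2, Lyve1, Folr2, Gas6 and Cd209g. The receptor gene Gpr165 had 0 reads in all cDC2 libraries and 25.4, 24.2, 31.3 and 24.1 CPM in the macrophage libraries (at least 345-fold lower, against 3 reads over the group). Cbr2, a carbonyl reductase gene, had 2.65, 2.13, 2.95 and 4.40 CPM in the cDC2 libraries, against 722, 822, 838 and 728 CPM in the macrophage libraries. It was 254-fold lower in cDC2 (log2 difference -7.99 ± 0.41 SE, adjusted p = 2.48e-14). The hyaluronan receptor gene Lyve1 (chromosome 7, 110850607 to 110863239, minus strand) had 0, 0.532, 0.766 and 0.842 CPM in the cDC2 libraries, against 98.2, 59.6, 89.2 and 114 CPM in the macrophage libraries, a 166-fold lower level (log2 difference -7.37 ± 0.64 SE, adjusted p = 1.45e-10). The folate receptor gene Folr2 (4.14 ± 1.55 CPM in cDC2 and 560.4 ± 123 in macrophages, 136-fold) and the MERTK ligand gene Gas6 (8.09 ± 2.79 CPM in cDC2 and 716 ± 54.4 in macrophages, 88.5-fold) were lower. The complement gene C6 was lower too (133-fold, 45.3 to 649). The others were Spats2l (104-fold), the erythropoietin receptor gene Epor (101-fold), the chemokine gene Ccl12 (97.4-fold), the peptide transporter gene Slc15a2 (93.0-fold), the lectin gene Cd209g (86.1-fold) and the talin gene Tln2 (81.7-fold). All cDC2 reads of Spats2l were in replicate 4. Cd209g did not pass within libraries numbered 1 and 4 (adjusted p = 0.0768). Epor, Ccl12 and Cd209g had log2 differences of -7.81, -7.40 and -7.54 without cDC2 replicate 3. Tln2 had a log2 difference of -8.27 without cDC2 replicate 1.

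**Figure D2:**
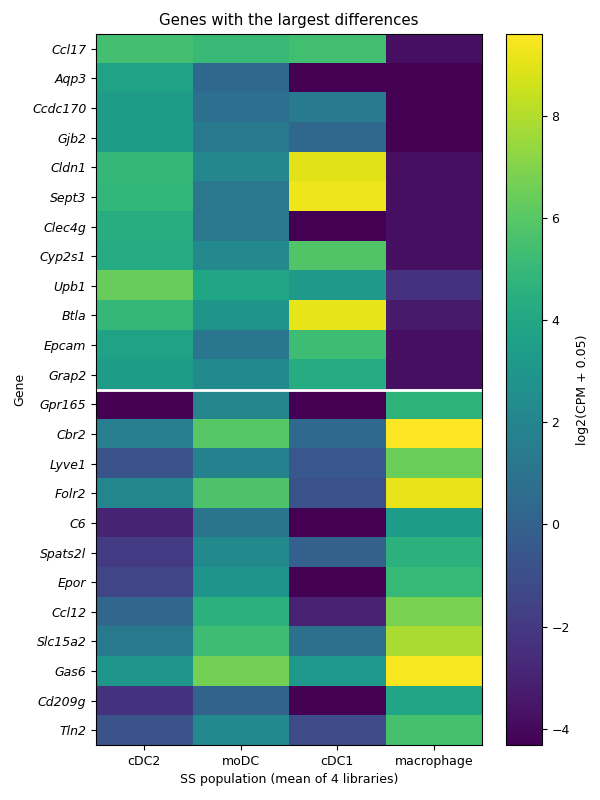
Mean levels of the 24 genes with the largest differences in the 4 SS populations, as log2 of CPM plus 0.05, with SS cDC2, moDCs, cDC1 and macrophages from left to right (n = 4 each). Cldn1, Sept3 and Btla were higher in cDC1 than in cDC2, and the 12 genes low in cDC2 were highest in macrophages in each case.

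The other SS populations placed these genes differently. Of the 838 genes called at least 2-fold higher in cDC2 with a mean of at least 10 CPM, 495 had a moDC mean between the means of both populations and nearer to cDC2 on a log scale, and 297 one between them and nearer to macrophages. The cDC1 mean was above both for 278 of them and below both for 166. Cldn1 averaged 498 ± 70.2 CPM in cDC1 and Btla 546 ± 35.4 CPM, above their means of 31 and 31.2 CPM in cDC2. Aqp3 and Clec4g had 0 reads in the 4 cDC1 libraries, and Upb1 averaged 9.24 ± 3.15 CPM there. Of the 879 genes called at least 2-fold lower, 244 had a moDC mean between both and nearer to cDC2, and 569 one nearer to macrophages. The cDC1 mean was below both for 484.

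Of 47 lineage transcription factor genes tested, 21 were higher in cDC2, 11 were lower and 15 did not pass. Bhlhe40, a basic helix-loop-helix repressor gene, had 532, 664, 832 and 758 CPM in the cDC2 libraries, against 6.96, 11.1, 20.8 and 20.7 CPM in the macrophage libraries. It was 46.8-fold higher (log2 difference 5.55 ± 0.35 SE, adjusted p = 1.71e-12). The orphan nuclear receptor genes Nr4a3 (117 ± 60.3 CPM in cDC2 and 7.75 ± 4.56 in macrophages, 15-fold) and Nr4a2 (182 ± 20.7 CPM in cDC2 and 22.8 ± 9.56 in macrophages, 7.99-fold) were higher. Nfil3 (300.2 ± 53.3 CPM in cDC2 and 50.8 ± 8.66 in macrophages, 5.91-fold), a factor required for cDC1 development, and Pparg (58.4 ± 22.4 CPM in cDC2 and 20.0 ± 2.60 in macrophages, 2.92-fold), a lipid sensor, were higher. Beside Maf, Mef2c (122 ± 40.4 CPM in cDC2 and 372 ± 21.4 in macrophages, 3.04-fold) and Tcf4 (40.8 ± 4.56 CPM in cDC2 and 121 ± 26.5 in macrophages, 2.96-fold) were lower in cDC2. Irf8, which cDC1 and monocytes depend on, was lower in cDC2 (214 ± 43.8 CPM in cDC2 and 466 ± 54.8 in macrophages, 2.18-fold). Spi1, coding for the shared myeloid factor PU.1 (549 ± 82.1 CPM in cDC2 and 503 ± 38.6 in macrophages, adjusted p = 0.347), and Rbpj (335 ± 57.1 CPM in cDC2 and 375 ± 17.0 in macrophages, 0.310) did not pass.

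The cDC2 libraries also held transcripts known from monocytes. Of 10 non-classical monocyte genes tested, 9 were higher in cDC2 and 1, Cx3cr1, was lower. The angiotensin-converting enzyme gene Ace (chromosome 11, 105967945 to 105989964, plus strand) had 974, 422, 254 and 202 CPM in the cDC2 libraries, against 1.14, 3.14, 2.70 and 4.66 CPM in the macrophage libraries. The receptor gene Treml4 had 374, 194, 117 and 83.7 CPM in the cDC2 libraries, against 3.81, 4.71, 1.93 and 3.59 CPM in the macrophage libraries, and Cd300e had 399, 173, 116 and 73.2 CPM in the cDC2 libraries, against 0.572, 2.65, 2.79 and 1.65 CPM in the macrophage libraries. All 3 genes were highest in cDC2 replicate 1 and lowest in replicate 4, and no macrophage library reached the lowest cDC2 library. Ace was 159-fold higher (log2 difference 7.31 ± 0.85 SE, adjusted p = 1.72e-07), Treml4 54.6-fold and Cd300e 98.9-fold. The fractalkine receptor gene Cx3cr1 (213 ± 57.2 CPM in cDC2 and 1278 ± 174 in macrophages, 6.0-fold) was lower (adjusted p = 3.03e-11). Summed over the list, the level ran from 2571 to 5824 CPM in cDC2, against 1765 to 2270.2 CPM in macrophages, and none of its defining markers (Nr4a1, Ace and Treml4) was at 0 in either. Of 15 classical monocyte genes tested, 9 were higher in cDC2, 0 were lower and 6 did not pass. They summed to 9362 to 14979 CPM in cDC2, lowest in replicate 1, against 2122 to 2823 CPM in macrophages. The chemokine receptor gene Ccr2 (1838 ± 280.5 CPM in cDC2 and 420.1 ± 63.4 in macrophages, 4.37-fold), Plac8 (356 ± 229 CPM in cDC2 and 15.4 ± 8.93 in macrophages, 23.2-fold) and the fibronectin gene Fn1 (1778 ± 370.4 CPM in cDC2 and 64.6 ± 74.9 in macrophages, 27.5-fold) were higher. Ly6c2, coding for the Ly6C antigen of classical monocytes (8.0 ± 7.50 CPM in cDC2 and 6.66 ± 1.49 in macrophages, adjusted p = 0.805), and Chil3 (3.17 ± 2.97 CPM in cDC2 and 2.13 ± 0.850 in macrophages, 0.528) did not pass. The part of such cells in the differences of cDC2 was not tested. Without cDC2 replicate 1, where the non-classical list was highest, 4366 genes passed. Ace and Cd300e had log2 differences of 6.65 and 5.97 without cDC2 replicate 1. Fn1 had a log2 difference of 5.42 with a replicate block. Fn1 had a log2 difference of 6.0 without macrophage replicate 4.

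Genes of dendritic cell maturation varied among the same cDC2 libraries in another way. The lymph node homing receptor gene Ccr7 (chromosome 11, 99144196 to 99155077, minus strand) had 67.3, 359, 928 and 324 CPM in the cDC2 libraries, against 0, 3.92, 1.83 and 3.49 CPM in the macrophage libraries. The chemokine gene Ccl22 had 29.7, 46.8, 281 and 72.4 CPM in the cDC2 libraries, against 0, 1.96, 0 and 0.388 CPM in the macrophage libraries. The actin bundling gene Fscn1 had 22.4, 40.1, 206 and 64.0 CPM in the cDC2 libraries, against 29.8, 23.1, 23.1 and 22.9 CPM in the macrophage libraries. Replicate 3 was the highest cDC2 library and replicate 1 the lowest for all 3 genes, and for Fscn1 replicate 1 lay just below the macrophage range. Ccr7 was 181-fold higher in cDC2 (log2 difference 7.50 ± 1.02 SE, adjusted p = 2.38e-06) and Ccl22 181-fold higher (1.78e-05), whereas Fscn1 did not pass (0.0972). Of 23 maturation and migration genes tested, 13 were higher, 0 were lower and 10 did not pass (median log2 difference 1.5), and within libraries numbered 1 and 4 alone 7 were higher. Samsn1 (197 ± 25.4 CPM in cDC2 and 31.8 ± 7.23 in macrophages, 6.20-fold), Birc3 (248 ± 62.5 CPM in cDC2 and 119 ± 27.6 in macrophages, 2.09-fold) and Slco5a1 (2.61 ± 2.50 CPM in cDC2 and 0 ± 0 in macrophages, at least 35.0-fold) were higher. Cd83 (2743 ± 484 CPM in cDC2 and 2221 ± 673 in macrophages, adjusted p = 0.333) and Marcksl1 (559.7 ± 199 CPM in cDC2 and 829 ± 171 in macrophages, 0.212) did not pass. Fscn1 passed in DESeq2 (adjusted p = 0.0478) and with only the 8 libraries fitted (0.0455). Cd83 passed with a replicate block (adjusted p = 0.0360). Ccr7 and Ccl22 had log2 differences of 6.76 and 6.39 without cDC2 replicate 3. Ccl22 had a log2 difference of 9.58 without macrophage replicate 2.

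**Figure D3:**
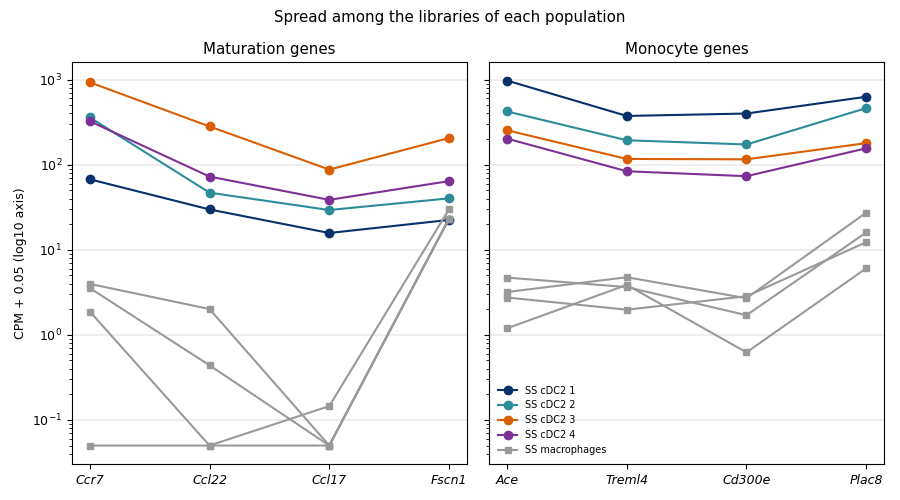
Levels of 4 maturation genes (left) and of 3 non-classical and 1 classical monocyte gene, Plac8 (right), in each library, in CPM on a log10 axis with 0.05 added to each value, where lines join the genes of 1 library. The cDC2 libraries (coloured, by replicate) lie above the macrophage libraries (grey) for all genes except Fscn1, with replicate 3 highest on the left and replicate 1 highest on the right.

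Genes of antigen presentation on MHC class II were mostly higher in cDC2, but by small folds for the abundant chains. Of 18 genes tested, 11 were higher, 1 was lower and 6 did not pass (median log2 difference 0.92). H2-Ab1, the beta chain of the class II molecule I-A, had 8656, 12738, 13900.1 and 11313 CPM in the cDC2 libraries, against 5501, 7165, 4058 and 4336 CPM in the macrophage libraries, with 2.21-fold higher levels that did not overlap (log2 difference 1.15 ± 0.16 SE, adjusted p = 5.74e-07). H2-Aa (10096 ± 1934 CPM in cDC2 and 5275 ± 1419 in macrophages, 1.91-fold), H2-Eb1 (9947 ± 2084 CPM in cDC2 and 4467 ± 1141 in macrophages, 2.23-fold) and the invariant chain gene Cd74 (43636 ± 7334 CPM in cDC2 and 27151 ± 6773 in macrophages, 1.61-fold) were higher. Among the genes of peptide exchange, the DM beta chain genes H2-DMb2 (657 ± 136 CPM in cDC2 and 148 ± 33.3 in macrophages, 4.43-fold) and H2-DMb1 (1028 ± 183 CPM in cDC2 and 317 ± 76.8 in macrophages, 3.25-fold) were higher by larger folds than these, and the alpha chain gene H2-DMa (1537 ± 292 CPM in cDC2 and 739.5 ± 119.6 in macrophages, 2.08-fold) by a fold between those of H2-Aa and H2-Ab1. So was H2-Ob (105 ± 13.7 CPM in cDC2 and 31.5 ± 11.6 in macrophages, 3.32-fold), the partner chain of H2-Oa in DO. Ciita, the transactivator of class II genes (159 ± 34.0 CPM in cDC2 and 85.0 ± 22.7 in macrophages, 1.87-fold), was higher (adjusted p = 5.21e-04). The endosomal protease gene Lgmn (237 ± 21.9 CPM in cDC2 and 1400.3 ± 150.0 in macrophages, 5.90-fold) was lower in cDC2, and the cathepsin gene Ctss (2108 ± 325 CPM in cDC2 and 2155 ± 468 in macrophages, adjusted p = 0.873) did not pass. H2 genes differ between mouse strains, and the strain of the reference to which these Balb/c reads were aligned was not named. Cd74 did not pass within libraries numbered 1 and 4 (adjusted p = 0.317).

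Class II promoters carry a CCAAT box, on which the factor NF-Y acts within the enhanceosome that recruits CIITA. RefSeq promoter windows on GRCm38.p6, from 250 bases before to 50 after the start, were found for 7 of the 8 class II chain genes named above, and 6 of the 7, all but H2-DMa, held the letters CCAAT on either strand. Among all 32851 promoter windows of the same length, 37.4% did. The other motifs searched, named below for the Cd209 genes, had no match in these 7 windows. Of the 6, H2-Aa, H2-DMb2 and H2-Oa are shown to let the place of the box be compared between an abundant chain and the genes of peptide exchange, with the box in capitals. Its first base in the printed lines lies at -48, -90 and -43 from the start. The box is on the strand opposite to that printed each time. The match is a description of these letters. The RefSeq windows of H2-DMa and H2-DMb2 lie inside their GENCODE genes, which begin at 34119541 and 34143307, and those starts were not searched.
H2-Aa (chr17:34287774-34288073, minus strand): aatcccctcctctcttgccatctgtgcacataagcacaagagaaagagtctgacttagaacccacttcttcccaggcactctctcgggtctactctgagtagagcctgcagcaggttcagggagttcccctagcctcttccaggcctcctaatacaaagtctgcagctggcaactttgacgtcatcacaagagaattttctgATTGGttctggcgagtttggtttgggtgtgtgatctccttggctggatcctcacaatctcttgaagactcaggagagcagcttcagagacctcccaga
H2-DMb2 (chr17:34144999-34145298, plus strand): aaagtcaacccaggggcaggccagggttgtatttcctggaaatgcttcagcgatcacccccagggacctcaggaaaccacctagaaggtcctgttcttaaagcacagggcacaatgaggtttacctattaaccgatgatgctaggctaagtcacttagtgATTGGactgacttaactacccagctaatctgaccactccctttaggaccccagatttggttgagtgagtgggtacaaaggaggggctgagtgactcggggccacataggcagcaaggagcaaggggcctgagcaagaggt
H2-Oa (chr17:34092129-34092428, plus strand): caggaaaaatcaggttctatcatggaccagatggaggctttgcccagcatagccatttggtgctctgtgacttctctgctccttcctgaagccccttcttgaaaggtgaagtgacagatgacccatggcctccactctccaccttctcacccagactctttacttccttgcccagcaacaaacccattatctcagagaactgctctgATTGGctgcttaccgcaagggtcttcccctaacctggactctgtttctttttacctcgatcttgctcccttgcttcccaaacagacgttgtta

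The machinery of MHC class I was also higher in cDC2, by smaller folds. Of 20 genes tested, 13 were higher, 0 were lower and 7 did not pass (median log2 difference 0.45). Within libraries numbered 1 and 4 alone, 6 were higher. The immunoproteasome gene Psmb8 (596 ± 65.0 CPM in cDC2 and 314 ± 67.6 in macrophages, 1.90-fold) and the peptide transporter gene Tap1 (195 ± 14.6 CPM in cDC2 and 121 ± 14.8 in macrophages, 1.61-fold) were higher. B2m, the light chain of class I molecules (2502 ± 442 CPM in cDC2 and 2356 ± 264 in macrophages), did not pass (adjusted p = 0.639). Of 20 costimulatory and checkpoint genes tested, 12 were higher, 4 were lower and 4 did not pass. The B7 ligands went in different directions. Cd80 (27.2 ± 7.31 CPM in cDC2 and 12 ± 1.23 in macrophages, 2.27-fold) was higher, whereas Cd86 had 96.6, 128, 130.4 and 116 CPM in the cDC2 libraries, against 292, 333, 303 and 245 CPM in the macrophage libraries and was 2.49-fold lower (log2 difference -1.32 ± 0.17 SE, adjusted p = 1.78e-07). The PD-1 ligand genes Cd274 (73.9 ± 19.1 CPM in cDC2 and 7.04 ± 1.17 in macrophages, 10.5-fold) and Pdcd1lg2 (6.16 ± 2.62 CPM in cDC2 and 0.169 ± 0.337 in macrophages, 34.2-fold) were higher. Cd40 (57.4 ± 14.8 CPM in cDC2 and 20.5 ± 3.18 in macrophages, 2.80-fold), Tnfsf9 (196 ± 68.8 CPM in cDC2 and 48.6 ± 10.5 in macrophages, 4.03-fold) and Slamf7 (59.8 ± 9.98 CPM in cDC2 and 3.61 ± 1.03 in macrophages, 16.6-fold) were higher. Cd276, coding for B7-H3 (8.69 ± 3.02 CPM in cDC2 and 54.6 ± 6.10 in macrophages, 6.29-fold), and Lgals9 (117 ± 13.2 CPM in cDC2 and 213 ± 26.2 in macrophages, 1.83-fold) were lower in cDC2. All macrophage reads of Pdcd1lg2 were in replicate 3.

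Of 17 T cell polarising cytokine genes tested, 6 were higher in cDC2, 2 were lower and 9 did not pass. Aldh1a2, whose enzyme makes retinoic acid, had 76.2, 148, 232 and 152 CPM in the cDC2 libraries, against 3.62, 0.882, 1.54 and 2.14 CPM in the macrophage libraries, a 73.9-fold higher level (log2 difference 6.21 ± 0.56 SE, adjusted p = 1.03e-09). Il6 (61.4 ± 23.2 CPM in cDC2 and 2.44 ± 2.27 in macrophages, 25-fold), Il1b (2166 ± 326 CPM in cDC2 and 707 ± 188 in macrophages, 3.07-fold) and Il12b (8.14 ± 6.30 CPM in cDC2 and 0.582 ± 0.652 in macrophages, 13.7-fold) were higher. Tnf (68.3 ± 9.34 CPM in cDC2 and 144 ± 31.2 in macrophages, 2.11-fold) and Il10 (2.1 ± 1.34 CPM in cDC2 and 7.74 ± 3.71 in macrophages, 3.66-fold) were lower in cDC2. Of 27 NF-kB and inflammation genes tested, 17 were higher, 0 were lower and 10 did not pass (median log2 difference 0.70). The subunit genes Nfkb1 (244 ± 76.6 CPM in cDC2 and 58.3 ± 12.1 in macrophages, 4.18-fold), Rel (230.3 ± 21.6 CPM in cDC2 and 75.7 ± 7.31 in macrophages, 3.04-fold) and Nfkb2 (140.2 ± 37.5 CPM in cDC2 and 66.1 ± 12.7 in macrophages, 2.12-fold) were higher, and so were the adaptor gene Traf1 (20.2-fold) and the inhibitor gene Nfkbie (3.44-fold). Nfkbiz (785 ± 138 CPM in cDC2 and 909 ± 260.5 in macrophages, adjusted p = 0.558) and Tnfaip3 (557 ± 127 CPM in cDC2 and 428 ± 99.8 in macrophages, 0.118) did not pass. Tnfaip3 passed with a replicate block (adjusted p = 0.0294). Il12b did not pass within libraries numbered 1 and 4 (adjusted p = 0.176) or within libraries numbered 2 and 3 (0.0799). Il10 did not pass within libraries numbered 1 and 4 (adjusted p = 0.239), within libraries numbered 2 and 3 (0.0926), without cDC2 replicate 1 (0.0847), without cDC2 replicate 3 (0.0719), without macrophage replicate 2 (0.0789) or without macrophage replicate 4 (0.0649). Il6 had a log2 difference of 5.52 without macrophage replicate 4. Il12b had a log2 difference of 3.12 without cDC2 replicate 3. Il12b had a log2 difference of 4.61 without macrophage replicate 2.

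**Figure D4:**
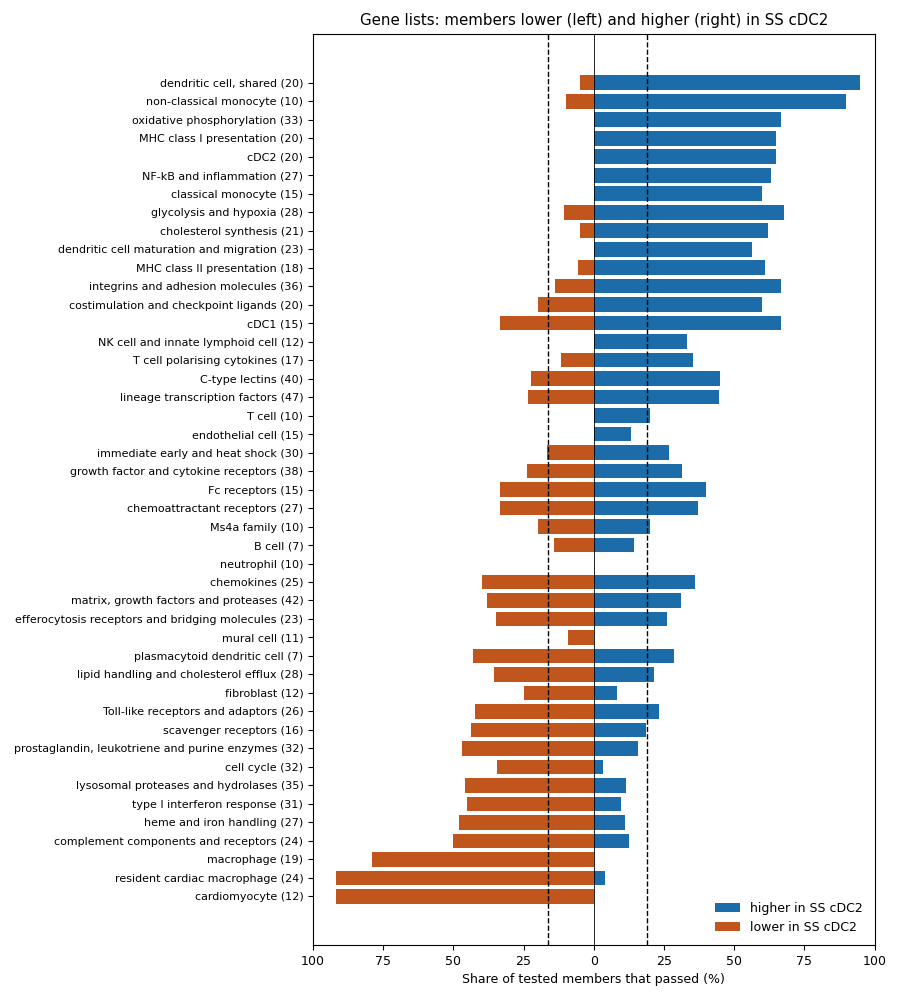
Share of each gene list's tested members that passed higher in SS cDC2 (right) or lower (left), in percent, with the number of members tested beside each name. Dashed lines mark the share over all genes tested, 19.1% higher and 16.2% lower. The shares are highest to the right for shared dendritic cell and non-classical monocyte genes and to the left for resident macrophage and cardiomyocyte genes.

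C-type lectins bind sugars of microbes and of host glycoproteins. Of 40 tested, 18 were higher in cDC2, 9 were lower (5 within libraries numbered 1 and 4 alone) and 13 did not pass. The Cd209 family on chromosome 8 split by gene. Cd209d had 161, 250.2, 186 and 185 CPM in the cDC2 libraries, against 2.57, 9.21, 5.58 and 3.20 CPM in the macrophage libraries, Cd209e 31.8, 43.0, 33.3 and 76.8 CPM in the cDC2 libraries, against 1.14, 2.55, 0.578 and 0.291 CPM in the macrophage libraries, and Cd209b 92.9, 119.9, 121 and 129 CPM in the cDC2 libraries, against 8.67, 18, 11.9 and 6.89 CPM in the macrophage libraries. With Cd209a and Cd209c, all 5 were higher in cDC2 with no overlap, by 141-fold for Cd209a, 38.0-fold for Cd209d, 40.2-fold for Cd209e, 10.2-fold for Cd209b and 13.1-fold for Cd209c. Cd209f had 0 reads in the cDC2 libraries and 2.86, 12.2, 13.9 and 4.66 CPM in the macrophage libraries. Cd209g had 0.0981, 0, 0.438 and 0.0936 CPM in the cDC2 libraries, against 6.48, 22.8, 23.2 and 4.66 CPM in the macrophage libraries. Both lay lower in cDC2 (adjusted p = 2.78e-04 and 8.00e-04), and macrophage replicates 2 and 3 were higher than replicates 1 and 4 for both. Genes of this family resemble each other, and reads shared between them may have been miscounted. Beside them Clec10a (212 ± 29.5 CPM in cDC2 and 59.6 ± 18 in macrophages, 3.56-fold) and Clec4b1 (233 ± 47.2 CPM in cDC2 and 71.0 ± 25.5 in macrophages, 3.28-fold) were higher. Clec5a (24.8 ± 4.98 CPM in cDC2 and 174 ± 14.2 in macrophages, 7.04-fold) and the langerin gene Cd207 (167 ± 58.9 CPM in cDC2 and 474 ± 112 in macrophages, 2.84-fold) were lower. Clec4a2 (149 ± 22.9 CPM in cDC2 and 153 ± 29.9 in macrophages, adjusted p = 0.919) did not pass. Cd207 did not pass within libraries numbered 2 and 3 (adjusted p = 0.115). Cd209e had a log2 difference of 6.08 without macrophage replicate 2.

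The Cd209 genes lie along chromosome 8 of GRCm38 in the order Cd209a (3743397 to 3748984), Cd209e, Cd209d, Cd209b, Cd209c, Cd209f and Cd209g (4134098 to 4137707), so that the 5 genes higher in cDC2 are neighbours and the pair higher in macrophages closes the row. RefSeq promoter windows were found for all 7. The composite Ets-IRF element, which PU.1 and IRF4 or IRF8 can bind together, was searched on both strands as GGAA, then any pair of bases, then GAAA. Where it lies on the strand opposite to that printed, it reads TTTC, any pair and TTCC in the lines printed. It occurred in the windows of Cd209a, Cd209d and Cd209e and not in the other 4, against 2.72% of all promoter windows. A PU.1 core, a Maf half-site, an interferon-stimulated response element and the CCAAT box were searched too. Of these only the CCAAT box matched, in Cd209c. The windows of Cd209a, Cd209d and Cd209e are shown with the element in capitals, and those of Cd209f and Cd209g below them for contrast. The first 3 were 43.6% to 58.3% identical in pairwise alignment, and Cd209f and Cd209g 81.2%. All other pairs among the 7 windows were 45.7% to 58.8% identical, so the first 3 did not stand apart.
Cd209a (chr8:3748935-3749234, minus strand): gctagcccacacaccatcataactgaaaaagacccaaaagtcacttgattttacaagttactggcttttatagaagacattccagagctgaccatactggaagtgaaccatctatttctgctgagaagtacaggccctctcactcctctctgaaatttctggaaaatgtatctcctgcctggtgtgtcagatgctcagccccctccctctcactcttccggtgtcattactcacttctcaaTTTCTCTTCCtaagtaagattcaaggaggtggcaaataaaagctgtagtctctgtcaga
Cd209d (chr8:3878450-3878749, minus strand): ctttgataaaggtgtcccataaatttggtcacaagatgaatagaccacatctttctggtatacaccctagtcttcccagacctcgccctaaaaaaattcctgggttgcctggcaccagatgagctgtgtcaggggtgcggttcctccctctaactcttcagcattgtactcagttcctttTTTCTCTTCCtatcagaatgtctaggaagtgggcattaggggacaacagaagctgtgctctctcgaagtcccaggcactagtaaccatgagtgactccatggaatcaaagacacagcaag
Cd209e (chr8:3854237-3854536, minus strand): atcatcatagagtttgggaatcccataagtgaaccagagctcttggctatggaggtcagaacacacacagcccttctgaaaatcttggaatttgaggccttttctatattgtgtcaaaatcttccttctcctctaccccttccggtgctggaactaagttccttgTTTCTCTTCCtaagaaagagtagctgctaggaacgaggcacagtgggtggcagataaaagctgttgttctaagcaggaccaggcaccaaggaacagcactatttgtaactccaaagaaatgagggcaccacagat
Cd209f (chr8:4105715-4106014, minus strand): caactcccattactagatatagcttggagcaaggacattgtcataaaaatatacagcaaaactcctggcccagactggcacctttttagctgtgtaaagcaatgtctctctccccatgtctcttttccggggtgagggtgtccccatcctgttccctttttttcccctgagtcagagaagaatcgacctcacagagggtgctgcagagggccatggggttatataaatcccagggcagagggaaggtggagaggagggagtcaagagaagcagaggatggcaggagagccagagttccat
Cd209g (chr8:4134486-4134785, plus strand): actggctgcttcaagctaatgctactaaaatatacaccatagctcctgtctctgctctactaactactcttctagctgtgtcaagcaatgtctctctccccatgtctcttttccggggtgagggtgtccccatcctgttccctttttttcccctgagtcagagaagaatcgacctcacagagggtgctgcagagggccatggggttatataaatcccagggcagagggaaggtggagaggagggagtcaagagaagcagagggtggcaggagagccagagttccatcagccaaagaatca
In the printed lines, the first base of the element lies at -9, -70 and -85 from the start of Cd209a, Cd209d and Cd209e. The element is on the strand opposite to that printed. A match is a description of letters and does not show that a factor binds. The windows of Cd209b and Cd209c, also higher in cDC2, held no match to the element. The RefSeq window of Cd209c (3946814 to 3947113) lies inside its GENCODE gene, which starts at 3954746 on the minus strand. The window of Cd209g also lies inside its GENCODE gene, which starts at 4134098. Those GENCODE starts were not searched.

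**Figure D5:**
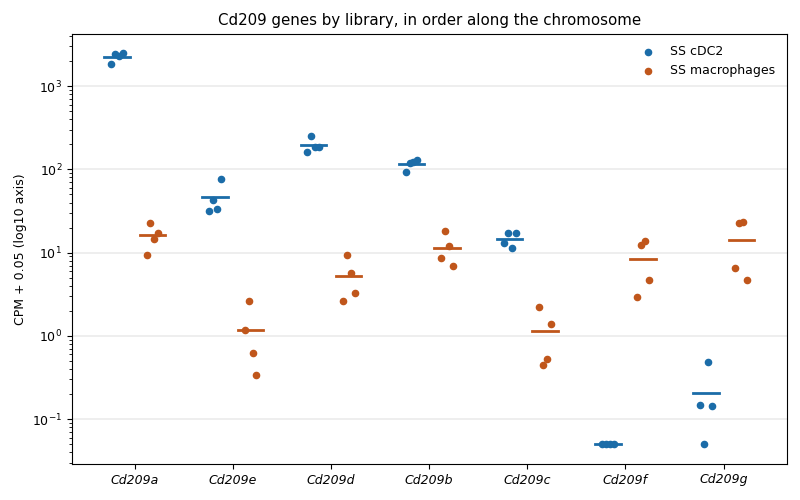
Levels of the 7 Cd209 genes in each library, in CPM on a log10 axis with 0.05 added to each value, in their order along chromosome 8, for SS cDC2 (left of each pair) and SS macrophages (right), where bars are means of 4. Cd209a to Cd209c are higher in all cDC2 libraries, and Cd209f and Cd209g are higher in all macrophage libraries.

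Resident cardiac macrophage genes were nearly all lower, with 22 of 24 tested lower in cDC2, 1 higher (Cd209d) and 1 not passing (Cd83), and a median log2 difference of -3.89. Sepp1, coding for selenoprotein P, had 590.2, 717, 774 and 558 CPM in the cDC2 libraries, against 7078, 10419.7, 10162 and 6909.6 CPM in the macrophage libraries. The scavenger receptor gene Stab1 had 12.4, 23.1, 22.1 and 18.1 CPM in the cDC2 libraries, against 1697, 887, 1229 and 1729 CPM in the macrophage libraries. They were 13.1-fold (log2 difference -3.71 ± 0.18 SE, adjusted p = 2.16e-16) and 73.4-fold (-6.20 ± 0.39, 1.64e-12) lower in cDC2. Vsig4 (2.60 ± 1.60 CPM in cDC2 and 203 ± 63.8 in macrophages, 77.3-fold), a complement receptor gene, and the chemokine gene Pf4 (12 ± 7.48 CPM in cDC2 and 582 ± 125 in macrophages, 48.7-fold) were lower. The growth factor gene Igf1 (6.92 ± 4.24 CPM in cDC2 and 154 ± 21.9 in macrophages, 22.3-fold) and the prostaglandin dehydrogenase gene Hpgd (97.1 ± 32.6 CPM in cDC2 and 1018 ± 155 in macrophages, 10.5-fold) were lower. Timd4, a phosphatidylserine receptor gene of long-lived resident macrophages, had 11.3, 28.8, 47.4 and 26.4 CPM in the cDC2 libraries, against 55.5, 85.0, 74.0 and 69.1 CPM in the macrophage libraries, and was 2.49-fold lower (adjusted p = 0.00149). It averaged 220.0 ± 35.7 CPM in SS cDC1. The haptoglobin-haemoglobin receptor gene Cd163 (111 ± 28.5 CPM in cDC2 and 511 ± 85.3 in macrophages, 4.59-fold) and the mannose receptor gene Mrc1 (283 ± 71.8 CPM in cDC2 and 1277 ± 161 in macrophages, 4.51-fold) were lower.

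Complement genes were more often lower in cDC2 than higher. Of 24 tested, 3 were higher in cDC2, 12 were lower and 9 did not pass. The genes of the C1q chains, which start the classical pathway, moved together. C1qa had 294, 546, 714 and 353 CPM in the cDC2 libraries, against 5007, 6665, 5157 and 4231 CPM in the macrophage libraries, C1qb 255, 514, 584 and 268 CPM in the cDC2 libraries, against 4246, 5059.8, 3949 and 3571 CPM in the macrophage libraries, and C1qc 236, 453, 549.8 and 308 CPM in the cDC2 libraries, against 4869, 5511, 4620.3 and 4138 CPM in the macrophage libraries. They were 11-fold, 10.4-fold and 12.4-fold lower in cDC2 (adjusted p = 4.33e-09, 1.08e-08 and 1.64e-09), and no cDC2 library was below 236 CPM for any of them. The anaphylatoxin receptor genes C3ar1 (117 ± 32.4 CPM in cDC2 and 1022 ± 133 in macrophages, 8.70-fold) and C5ar1 (86.8 ± 30.9 CPM in cDC2 and 825 ± 84.1 in macrophages, 9.50-fold) were lower. The 3 higher genes were the integrin genes Itgam and Itgax, whose proteins form complement receptors, and Cfp (1756 ± 543 CPM in cDC2 and 377 ± 70.5 in macrophages, 4.66-fold), which codes for properdin, a stabiliser of the alternative pathway convertase. Itgax counts here as a description only, because the gate used CD11c. Of 23 efferocytosis genes tested, 6 were higher, 8 were lower and 9 did not pass. Both Gas6 and its receptor gene Mertk were lower, and so was the related receptor gene Axl (673 ± 218 CPM in cDC2 and 1101 ± 81.6 in macrophages, 1.64-fold). The lipid-binding receptor genes Cd300a (484 ± 152 CPM in cDC2 and 221 ± 53.2 in macrophages, 2.19-fold) and Cd300lb (147 ± 52.1 CPM in cDC2 and 70.8 ± 14.1 in macrophages, 2.07-fold) were higher in cDC2, and Cd36 (292 ± 96.9 CPM in cDC2 and 336 ± 65.7 in macrophages) did not pass (adjusted p = 0.555). Axl did not pass within libraries numbered 2 and 3 (adjusted p = 0.328) or without cDC2 replicate 1 (0.0557). Cd300lb did not pass within libraries numbered 2 and 3 (adjusted p = 0.0676).

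Of 16 scavenger receptor genes tested, 3 were higher in cDC2, 7 were lower and 6 did not pass. Msr1 (64.1 ± 17.3 CPM in cDC2 and 316 ± 8.25 in macrophages, 4.93-fold) and Colec12 (133 ± 37.3 CPM in cDC2 and 396 ± 70.8 in macrophages, 2.98-fold) were lower, while Olr1 (16.1 ± 5.24 CPM in cDC2 and 1.67 ± 1.51 in macrophages, 9.61-fold) was higher. Of 15 Fc receptor genes tested, 6 were higher, 5 were lower (3 and 3 within libraries numbered 1 and 4 alone) and 4 did not pass. The neonatal Fc receptor gene Fcgrt (661 ± 49.0 CPM in cDC2 and 1126 ± 184 in macrophages, 1.70-fold) and Fcgr3 (413 ± 63.8 CPM in cDC2 and 871 ± 140.1 in macrophages, 2.11-fold) were lower in cDC2. Fcrl1 (10.1 ± 3.94 CPM in cDC2 and 1.44 ± 0.935 in macrophages, 6.90-fold) and Fcrl5 (7.61 ± 5.50 CPM in cDC2 and 0.145 ± 0.124 in macrophages, 48.7-fold), Fc receptor-like genes known from B cells, were higher. The B cell list summed to 23.6 to 32.2 CPM in cDC2, against 28.9 to 52.3 CPM in macrophages. Of its 7 genes tested, 1 was higher, 1 was lower and 5 did not pass (median log2 difference 1.22). The lower gene made up most of the macrophage sum. The part of B cells in these differences was not tested. Fcer1g (567 ± 151 CPM in cDC2 and 514 ± 99.9 in macrophages, adjusted p = 0.520) did not pass. Fcgr3 did not pass with only the 16 SS libraries fitted (adjusted p = 0.0598) or within libraries numbered 1 and 4 (0.0595). Olr1 had a log2 difference of 3.90 without macrophage replicate 3. Fcrl5 had a log2 difference of 5.01 without cDC2 replicate 1.

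Lysosomal genes were more often lower in cDC2, 16 of 35 tested against 4 higher, and 15 did not pass. The progranulin gene Grn (1042 ± 143 CPM in cDC2 and 2633 ± 145 in macrophages, 2.53-fold) and the cathepsin genes Ctsb (2857 ± 491 CPM in cDC2 and 6841 ± 501 in macrophages, 2.39-fold) and Ctsf (26.5 ± 7.20 CPM in cDC2 and 241 ± 21.5 in macrophages, 9.10-fold) were lower, as was Lgmn. The higher genes included the saposin precursor gene Psap (10151 ± 1825 CPM in cDC2 and 4089 ± 417 in macrophages, 2.48-fold) and Ctsh (1245 ± 174 CPM in cDC2 and 676 ± 136 in macrophages, 1.84-fold). Of 28 lipid handling genes tested, 6 were higher, 10 were lower and 12 did not pass. Apoe, coding for apolipoprotein E, had 1456, 1333, 1233 and 759.9 CPM in the cDC2 libraries, against 23835, 19283, 15358 and 20946 CPM in the macrophage libraries, a 16.6-fold lower level in cDC2 (log2 difference -4.05 ± 0.30 SE, adjusted p = 2.01e-11). The lipid receptor gene Trem2 (19.6 ± 6.72 CPM in cDC2 and 218 ± 30.0 in macrophages, 11.1-fold) was lower. The cholesterol exporters parted, with Abca1 (26.7 ± 6.78 CPM in cDC2 and 216 ± 67.8 in macrophages, 8.06-fold) lower and Abcg1 (115 ± 7.39 CPM in cDC2 and 42.7 ± 6.01 in macrophages, 2.68-fold) higher. Plin2 (318 ± 35.2 CPM in cDC2 and 328 ± 31.2 in macrophages, adjusted p = 0.851) did not pass.

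Of 27 heme and iron genes tested, 3 were higher in cDC2, 13 were lower and 11 did not pass. The iron exporter gene Slc40a1 had 9.61, 10.2, 11.9 and 10.5 CPM in the cDC2 libraries, against 123, 155, 246 and 119 CPM in the macrophage libraries, a 15.2-fold lower level (log2 difference -3.93 ± 0.38 SE, adjusted p = 2.44e-08). The ferroxidase gene Cp (5.63 ± 4.21 CPM in cDC2 and 118 ± 17.2 in macrophages, 21.0-fold) and the biliverdin reductase gene Blvrb (24.4 ± 3.55 CPM in cDC2 and 128 ± 18.3 in macrophages, 5.25-fold) were lower, and so was the heme oxygenase gene Hmox1 (254 ± 75.4 CPM in cDC2 and 444 ± 42.7 in macrophages, 1.75-fold). The heme transporter genes Mfsd7b (75.6 ± 11.7 CPM in cDC2 and 32.3 ± 5.17 in macrophages, 2.34-fold, also called Flvcr1) and Slc48a1 (306 ± 67.3 CPM in cDC2 and 166 ± 8.08 in macrophages, 1.84-fold) were higher. The ferritin heavy chain gene Fth1 (3863 ± 536 CPM in cDC2 and 4209 ± 447 in macrophages) did not pass (adjusted p = 0.378). Hmox1 did not pass within libraries numbered 2 and 3 (adjusted p = 0.0604).

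Chemokine genes divided between the populations. Of 25 tested, 9 were higher in cDC2 (5 within libraries numbered 1 and 4 alone), 10 were lower and 6 did not pass. Beside Ccl17 and Ccl22, which attract CCR4-bearing T cells, Ccl9 (2072 ± 479 CPM in cDC2 and 595 ± 142 in macrophages, 3.48-fold) and Ccl6 (3148 ± 783 CPM in cDC2 and 1072 ± 277 in macrophages, 2.94-fold) were higher. The monocyte-attracting genes Ccl7 (14.1 ± 4.92 CPM in cDC2 and 95.7 ± 37.9 in macrophages, 6.80-fold) and Ccl8 (1.08 ± 1.84 CPM in cDC2 and 37.0 ± 21.6 in macrophages, 35.3-fold) were lower in cDC2, as was Ccl12. Ccl4 (376 ± 56.0 CPM in cDC2 and 427 ± 134 in macrophages, adjusted p = 0.578) and Cxcl2 (216 ± 51.9 CPM in cDC2 and 278 ± 70.1 in macrophages, 0.194) did not pass. Of 27 chemoattractant receptor genes tested, 10 were higher, 9 were lower and 8 did not pass. Ltb4r1, the leukotriene B4 receptor gene, had 350.0, 525, 513 and 425 CPM in the cDC2 libraries, against 1.91, 1.37, 6.45 and 6.50 CPM in the macrophage libraries. It was 111-fold higher (log2 difference 6.80 ± 0.48 SE, adjusted p = 1.87e-11). Ccr6 (12.2 ± 5.40 CPM in cDC2 and 0.146 ± 0.291 in macrophages, 77.7-fold) and Cxcr4 (131 ± 24.9 CPM in cDC2 and 60.0 ± 9.10 in macrophages, 2.18-fold) were higher. S1pr1 (9.72 ± 2.85 CPM in cDC2 and 108 ± 15.3 in macrophages, 11.1-fold), a sphingosine phosphate receptor gene, and the purine receptor gene P2ry12 (8.13 ± 3.19 CPM in cDC2 and 109 ± 17.4 in macrophages, 13.4-fold) were lower. All macrophage reads of Ccr6 were in replicate 4. Ccl8 had a log2 difference of -7.71 without cDC2 replicate 3.

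Integrin and adhesion genes were mostly higher in cDC2, 24 of 36 tested, with 5 lower and 7 not passing (median log2 difference 1.32). The 24 include Itgax, whose level is a description because the gate used CD11c. Itgb7, a beta chain known for homing to mucosa, had 826, 794, 803 and 802 CPM in the cDC2 libraries, against 8.29, 14.7, 12.2 and 14.6 CPM in the macrophage libraries, a 64.7-fold higher level (log2 difference 6.02 ± 0.38 SE, adjusted p = 1.61e-12). Itgb2, the shared beta chain of CD11a, CD11b and CD11c (1233 ± 59.3 CPM in cDC2 and 299 ± 18.5 in macrophages, 4.13-fold), was higher. So were Itgal (524 ± 245 CPM in cDC2 and 123 ± 52.8 in macrophages, 4.27-fold), its CD11a partner chain, and the adhesion gene Alcam (142 ± 31.3 CPM in cDC2 and 30.4 ± 8.93 in macrophages, 4.68-fold). Itga6 (10.9 ± 6.33 CPM in cDC2 and 148 ± 11.5 in macrophages, 13.6-fold) and Itga9 (22.5 ± 8.83 CPM in cDC2 and 168 ± 21.3 in macrophages, 7.49-fold) were lower in cDC2. Of 38 growth factor and cytokine receptor genes tested, 12 were higher, 9 were lower and 17 did not pass. The common gamma chain gene Il2rg (396 ± 52.7 CPM in cDC2 and 68.7 ± 4.44 in macrophages, 5.76-fold) and the GM-CSF receptor genes Csf2ra (639 ± 81.8 CPM in cDC2 and 285 ± 47.8 in macrophages, 2.24-fold) and Csf2rb (189 ± 43.2 CPM in cDC2 and 78.4 ± 16.6 in macrophages, 2.41-fold) were higher. The TGF-beta receptor gene Tgfbr2 had 178, 135, 179.8 and 141 CPM in the cDC2 libraries, against 799, 769, 793 and 828 CPM in the macrophage libraries, a 5.04-fold lower level (log2 difference -2.33 ± 0.15 SE, adjusted p = 1.49e-13). Il10rb (109 ± 9.57 CPM in cDC2 and 333 ± 36.1 in macrophages, 3.04-fold) and Tnfrsf11a (53.3 ± 11.5 CPM in cDC2 and 207 ± 22.2 in macrophages, 3.88-fold), coding for RANK, were lower.

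Innate sensing genes were more often lower in cDC2 than higher. Of 26 Toll-like receptor genes and adaptors tested, 6 were higher (3 within libraries numbered 1 and 4 alone), 11 were lower and 9 did not pass. Tlr4 (63.6 ± 9.05 CPM in cDC2 and 186 ± 24.8 in macrophages, 2.92-fold), the sensor of lipopolysaccharide, and Tlr5 (2.54 ± 0.896 CPM in cDC2 and 26.4 ± 3.44 in macrophages, 10.4-fold), the sensor of flagellin, were lower. Tlr11 (55.4 ± 9.39 CPM in cDC2 and 5.79 ± 2.02 in macrophages, 9.55-fold) and the adaptor gene Myd88 (299 ± 35.8 CPM in cDC2 and 136 ± 17.3 in macrophages, 2.19-fold) were higher, and Tlr2 (723 ± 90.4 CPM in cDC2 and 744 ± 147 in macrophages, adjusted p = 0.862) did not pass. Of 31 type I interferon response genes tested, 3 were higher, 14 were lower (9 without cDC2 replicate 3 and 8 within libraries numbered 1 and 4 alone) and 14 did not pass. Oasl2 (17.1 ± 6.08 CPM in cDC2 and 151 ± 11.6 in macrophages, 8.85-fold), Ifit3 (5.33 ± 1.85 CPM in cDC2 and 24.1 ± 1.39 in macrophages, 4.52-fold) and Rtp4 (32.8 ± 12.9 CPM in cDC2 and 117 ± 20.7 in macrophages, 3.57-fold) were lower, and Irf7 (184 ± 52.9 CPM in cDC2 and 213 ± 8.61 in macrophages, adjusted p = 0.395) did not pass.

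Of 32 prostaglandin, leukotriene and purine genes tested, 5 were higher in cDC2, 15 were lower and 12 did not pass. The prostaglandin D synthase gene Hpgds (9.65 ± 1.36 CPM in cDC2 and 88.5 ± 2.16 in macrophages, 9.17-fold) and the 5-lipoxygenase gene Alox5 (79.3 ± 9.40 CPM in cDC2 and 353 ± 42.9 in macrophages, 4.45-fold) were lower. So were the nucleotide receptor genes P2ry6 (169.6 ± 23.5 CPM in cDC2 and 596 ± 64.5 in macrophages, 3.51-fold) and P2rx7 (24.4 ± 6.54 CPM in cDC2 and 132 ± 20.9 in macrophages, 5.40-fold). The adenosine receptor genes Adora2b (91.9 ± 24.7 CPM in cDC2 and 12.1 ± 2.84 in macrophages, 7.62-fold) and Adora2a (41.8 ± 13.3 CPM in cDC2 and 1.17 ± 1.16 in macrophages, 35.1-fold) were higher. Of 42 matrix, growth factor and protease genes tested, 13 were higher (8 within libraries numbered 1 and 4 alone), 16 were lower and 13 did not pass. The metalloprotease gene Adam8 had 199, 317, 402 and 250.3 CPM in the cDC2 libraries, against 2.57, 4.12, 10.5 and 10.1 CPM in the macrophage libraries, a 42.8-fold higher level (adjusted p = 7.10e-11). The galectin gene Lgals3 (943 ± 139 CPM in cDC2 and 129 ± 31.8 in macrophages, 7.32-fold) and the elastase gene Mmp12 (523 ± 182 CPM in cDC2 and 28.4 ± 9.06 in macrophages, 18.4-fold) were higher. So were the urokinase receptor gene Plaur (360.0 ± 64.6 CPM in cDC2 and 40.1 ± 4.32 in macrophages, 8.98-fold) and Vegfa (67.4 ± 35.2 CPM in cDC2 and 5.22 ± 2.93 in macrophages, 12.9-fold). Timp2 (263 ± 69.5 CPM in cDC2 and 1089 ± 25.4 in macrophages, 4.14-fold), F13a1 (457 ± 82.8 CPM in cDC2 and 2360.2 ± 412 in macrophages, 5.17-fold) and Tgfbi (419 ± 54.5 CPM in cDC2 and 911 ± 57.6 in macrophages, 2.18-fold) were lower. Of 10 Ms4a family genes tested, 2 were higher and 2 lower, namely Ms4a4c (269 ± 46.1 CPM in cDC2 and 44.5 ± 14.2 in macrophages) and Ms4a8a (22.0 ± 8.49 CPM in cDC2 and 3.72 ± 2.29 in macrophages) against Ms4a7 (35.9 ± 10.7 CPM in cDC2 and 189 ± 45.7 in macrophages) and Ms4a6b (228 ± 89.3 CPM in cDC2 and 386 ± 102 in macrophages). The share that passed was 40%, against 35.2% over all genes. Ms4a6b did not pass with only the 8 libraries fitted (adjusted p = 0.0502), within libraries numbered 1 and 4 (0.424), without cDC2 replicate 3 (0.0506), without cDC2 replicate 4 (0.0519) or without macrophage replicate 2 (0.0564). Adora2a had a log2 difference of 5.99 without macrophage replicate 1.

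Metabolic genes were mostly higher in cDC2. Of 28 glycolysis and hypoxia genes tested, 19 were higher, 3 were lower and 6 did not pass. Pfkp (224 ± 44.7 CPM in cDC2 and 54.4 ± 8.62 in macrophages, 4.12-fold), Pkm (1206 ± 113 CPM in cDC2 and 489 ± 19.3 in macrophages, 2.46-fold) and Ldha (1303 ± 192 CPM in cDC2 and 479 ± 93.7 in macrophages, 2.72-fold), coding for phosphofructokinase, pyruvate kinase and lactate dehydrogenase subunits, were higher. Of 33 oxidative phosphorylation genes tested, 22 were higher, 0 were lower and 11 did not pass (median log2 difference 0.58). The cytochrome c gene Cycs (234 ± 26.9 CPM in cDC2 and 77.5 ± 12.7 in macrophages, 3.02-fold) and the ATP synthase gene Atp5b (1456 ± 236 CPM in cDC2 and 810.3 ± 136 in macrophages, 1.80-fold) were higher. Of 21 cholesterol synthesis genes tested, 13 were higher, 1, Dhcr7 (41.5 ± 6.42 CPM in cDC2 and 58.9 ± 8.27 in macrophages), was lower and 7 did not pass (median log2 difference 0.92). Hmgcs1, a synthase gene early in the pathway, had 109, 97.6, 94.9 and 118 CPM in the cDC2 libraries, against 39.3, 41.9, 40.9 and 43.4 CPM in the macrophage libraries, a 2.54-fold higher level (log2 difference 1.34 ± 0.15 SE, adjusted p = 1.08e-08). Reads in ribosomal protein genes made up 1.58% to 2.1% of gene reads in cDC2 libraries, against 1.13% to 1.72% in macrophage libraries. Dhcr7 did not pass within libraries numbered 1 and 4 (adjusted p = 0.146).

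Cell cycle genes passed at a share (37.5%) near that over all genes (35.2%), and those that passed were mostly lower in cDC2. Of 32 tested, 1 was higher, 11 were lower and 20 did not pass. Cdk1 (12 ± 9.87 CPM in cDC2 and 31 ± 7.37 in macrophages, 2.58-fold) and Cdc20 (15.2 ± 7.36 CPM in cDC2 and 34.3 ± 13.1 in macrophages, 2.25-fold) were lower, and Ccne1 (8.43 ± 2.48 CPM in cDC2 and 1.54 ± 1.27 in macrophages, 5.43-fold) was higher. With only the 8 libraries in the fit 3 were lower, without cDC2 replicate 1 or without cDC2 replicate 2 it was 6, and without macrophage replicate 3 it was 7. Within libraries numbered 2 and 3 alone 3 were lower. Immediate early and heat shock genes, which tissue digestion is known to induce, showed no common direction, with 8 of 30 higher, 5 lower and 17 not passing (median log2 difference 0.0433). The share that passed was 43.3%, against 35.2% over all genes. Jun (1110.3 ± 359.7 CPM in cDC2 and 2320.5 ± 579 in macrophages, 2.09-fold), Fos (2431 ± 674 CPM in cDC2 and 4075 ± 1218 in macrophages, 1.68-fold) and Egr1 (846 ± 321 CPM in cDC2 and 1973 ± 872 in macrophages, 2.33-fold) were lower. Fosl2 (213 ± 28.3 CPM in cDC2 and 80.5 ± 22.7 in macrophages, 2.65-fold) and Hspa8 (4644 ± 604 CPM in cDC2 and 2783 ± 184 in macrophages, 1.67-fold) were higher, and Dusp1 (2485 ± 234 CPM in cDC2 and 2926 ± 565 in macrophages, adjusted p = 0.204) did not pass. Cdk1 did not pass with only the 8 libraries fitted (adjusted p = 0.0570). Cdk1 had a log2 difference of -2.03 without cDC2 replicate 3. Ccne1 had a log2 difference of 3.11 without macrophage replicate 3.

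Markers of other cells were read in both sorts. Of 12 cardiomyocyte genes tested, 11 were lower in cDC2 and 0 higher. They summed to 20.1 to 34.8 CPM in cDC2, against 192 to 285 CPM in macrophages. The myosin gene Myh6 had 0 reads in cDC2, and the natriuretic peptide gene Nppa had 1.47, 2.87, 1.53 and 3.0 CPM in the cDC2 libraries, against 31.5, 51.2, 43.2 and 52.8 CPM in the macrophage libraries. Of 7 plasmacytoid dendritic cell genes tested 2 were higher in cDC2 and 3 lower, with sums of 85.7 to 148 CPM in cDC2 and 194 to 261 CPM in macrophages. Fibroblast genes other than Gsn (928 ± 145 CPM in cDC2 and 491 ± 14.1 in macrophages) were each under 30 CPM on average in both, and 3 of 12 were lower in cDC2, among them the collagen gene Col3a1 (2.56 ± 1.17 CPM in cDC2 and 14.7 ± 8.21 in macrophages) and the decorin gene Dcn (5.32 ± 3.15 CPM in cDC2 and 24.9 ± 8.23 in macrophages). Of the 15 endothelial genes 2 were higher, Vwf (12.5 ± 6.09 CPM in cDC2 and 2.34 ± 0.637 in macrophages) and Pecam1 (19.9 ± 7.04 CPM in cDC2 and 6.22 ± 5.45 in macrophages), with sums of 51.3 to 179.6 CPM in cDC2 and 56.2 to 121 CPM in macrophages. Natural killer and innate lymphoid genes summed to 134 to 162 CPM in cDC2, against 14.9 to 44.8 CPM in macrophages, with Klrk1 (87.7 ± 13.2 CPM in cDC2 and 11.5 ± 2.27 in macrophages) and Klrd1 (15.8 ± 3.95 CPM in cDC2 and 0.217 ± 0.372 in macrophages) among 4 higher genes. T cell genes summed to 57.0 to 123 CPM in cDC2, against 6.48 to 22.2 CPM in macrophages, mostly Cd2 (71.0 ± 23.4 CPM in cDC2 and 2.57 ± 1.23 in macrophages), and Cd3e (1.60 ± 1.54 CPM in cDC2 and 0.436 ± 0.554 in macrophages, adjusted p = 0.399) did not pass. Of 10 neutrophil genes tested in edgeR 0 passed, with 1 at an unadjusted p under 0.05 and 0 in DESeq2, and they summed to 72.1 to 169 CPM in cDC2, against 122 to 259 CPM in macrophages. Of 11 mural genes tested 1, Des (1.28 ± 0.813 CPM in cDC2 and 8.97 ± 1.94 in macrophages), was lower and the others did not pass. Of 15 cDC1 genes tested 10 were higher in cDC2 and 5 lower. The defining cDC1 markers Xcr1 (3.53 ± 1.81 CPM in cDC2 and 1.47 ± 0.717 in macrophages) and Clec9a (9.89 ± 0.919 CPM in cDC2 and 0.218 ± 0.255 in macrophages) lay far below their levels in SS cDC1, 909.7 ± 104 CPM and 188 ± 12.7 CPM. The part of these other cells in the differences was not tested. Col3a1 did not pass within libraries numbered 2 and 3 (adjusted p = 0.126). Dcn did not pass within libraries numbered 1 and 4 (adjusted p = 0.130) or within libraries numbered 2 and 3 (0.0910). Pecam1 did not pass within libraries numbered 1 and 4 (adjusted p = 0.312). Des did not pass within libraries numbered 2 and 3 (adjusted p = 0.0757). Xcr1 lost its call in 14 of 18 alternatives, DESeq2 and other scalings among them (adjusted p = 0.0551 to 0.599). Pecam1 had a log2 difference of 2.45 without macrophage replicate 4. Klrd1 and Clec9a had log2 differences of 8.50 and 6.14 without macrophage replicate 3.

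Whether the same differences held in infarcted hearts was asked by testing the cDC2 to macrophage difference in SS against that in MI (3 MI cDC2 and 4 MI macrophage libraries). Of 13039 genes, 586 (4.49%) differed, 452 of them among the 4595 called in SS. Of 293 genes higher in SS cDC2, the difference was smaller after MI for 147, of opposite sign for 109 and was larger for 37. Of 159 lower in SS cDC2, it was smaller for 42, of opposite sign for 61 and was larger for 56. These signs are those of the estimate in MI, which was not tested on its own, and some estimates lay near 0. Ccr2, 4.37-fold higher in SS cDC2, averaged 2148 ± 253 CPM in MI cDC2 and 2124 ± 247 CPM in MI macrophages (adjusted p of the change in difference = 1.70e-08). The potassium channel gene Kcnn4, higher in SS cDC2 (78.4 ± 19.6 CPM in cDC2 and 1.81 ± 1.25 in macrophages, 43.0-fold), averaged 90.9 ± 7.34 CPM in MI cDC2 and 41.2 ± 7.68 CPM in MI macrophages (2.50e-08). The perforin-like gene Mpeg1, which did not pass in SS (1648 ± 71.3 CPM in cDC2 and 1435 ± 37.9 in macrophages, adjusted p = 0.206), had 679 ± 210.0 CPM in MI cDC2 and 2618 ± 227 CPM in MI macrophages (4.01e-09). F11r, a junctional adhesion gene higher in SS cDC2 (90.4 ± 6.85 CPM in cDC2 and 34.0 ± 4.08 in macrophages, 2.66-fold), averaged 369.8 ± 32.0 CPM in MI cDC2 and 23.8 ± 5.62 CPM in MI macrophages (8.08e-08). The glycosyltransferase gene Galnt12 (9.27 ± 1.69 CPM in cDC2 and 26.8 ± 2.09 in macrophages, 2.89-fold), lower in SS cDC2, averaged 33.2 ± 4.01 CPM in MI cDC2 and 12.5 ± 1.61 CPM in MI macrophages (5.77e-08). Trp53i11 (26.4 ± 6.82 CPM in cDC2 and 12.8 ± 5.14 in macrophages in SS) averaged 130.4 ± 10.0 CPM in MI cDC2 and 4.57 ± 0.888 CPM in MI macrophages (2.33e-08). Of 15 classical monocyte genes tested 10 were among them, and of 28 lipid handling genes 10. Both states share a fit, and any difference in preparation between SS and MI hearts cannot be told apart from MI. Trp53i11 did not pass within libraries numbered 1 and 4 (adjusted p = 0.106).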

How the data were processed

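RNA-seq read counts per gene were taken as the authors deposited them, 1 table per library. Per the labels' protocols, cDNA was made from 4 ng of RNA and sequenced in reads of 75 bases. Reads had been trimmed with Trimmomatic 0.35 and aligned with TopHat2 2.1.0, with SAMtools 0.1.18 and FastQC 0.11.4 also named, by the submitters' processing notes. A build was not given in the sources used here. From each table, 5 summary entries, among them reads in no gene (6.42% to 16.9%), were left out. Genes with a count of at least 10 by edgeR's filter were fitted with edgeR 4.0.16 in R 4.3.3 (TMM scaling, quasi-likelihood test, 8 groups, all 31 libraries, Benjamini-Hochberg adjustment). CPM values use TMM-scaled library sizes. Alternatives were RLE and upper-quartile scaling, DESeq2 1.42.0, other filters and library sets, and each library left out in turn.

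Same-numbered SS cDC2 and macrophage libraries deviated together (r = 0.109, 0.160, 0.128 and 0.114), so a replicate block was fitted as an alternative. The labels do not say that numbers mark pairs, and the main test had no block. Unlike numbers gave r of -0.154 to 0.124, the highest for cDC2 1 with macrophage 4. On simulated counts for 13039 genes, with 50 genes changed per fold, changes of 2-fold and 8-fold were recovered for 40% and 74%. Far fewer genes were changed than passed in the data, which makes the adjusted p stricter, so these shares cannot be carried over. The members and gene lists were chosen with earlier results of these data known. Named were the 12 genes with the largest fold in each direction among those with at least 10 CPM and no overlap, up to 6 passing and 2 other genes per list, and fixed lineage and interaction genes. A few genes that the rule names are not reported here. Of the 250 genes with values in the text, 179 fell under this rule and 71 further list members were chosen after their values were seen. Promoters came from RefSeq (GRCm38.p6) and gene positions from GENCODE M21 (GRCm38).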

Additional observations from a re-analysis of the deposited data

Results flagged for a closer look

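Among 500 sets of 4 libraries (250 genes named above, in cDC2 and in macrophages), 38 held 1 library far from the other 3 by Dixon's criterion. Normally distributed values meet it by chance in about 5% of sets. Sets with reads in only 1 library always meet it, so the 38 cannot be set against that rate. Reads in a single cDC2 library alone gave 0.328 CPM for C6 (replicate 3) and 0.842 CPM for Spats2l (replicate 4). A cDC2 library stood above its group at 281 CPM for Ccl22 (replicate 3, next 72.4), 21.4 CPM for Ccl7 (replicate 2, next 12.7), 3.83 CPM for Ccl8 (replicate 3, next 0.319) and 49.9 CPM for Cldn1 (replicate 4, next 26.7). Further cDC2 libraries stood above at 22.8 CPM for Cyp2s1 (replicate 3, next 18.3), 12.2 CPM for Gas6 (replicate 2, next 7.21), 63.0 CPM for Kit (replicate 3, next 35.2) and 358 CPM for Nfkb1 (replicate 1, next 219). Further cDC2 libraries stood above at 992 CPM for Nfkbiz (replicate 4, next 727) and 26.1 CPM for Oasl2 (replicate 2, next 15.1). A cDC2 library stood below its group at 168 CPM for Clec10a (replicate 1, next 226), 141 CPM for Hmox1 (replicate 3, next 289.9), 1145 CPM for Itgb2 (replicate 4, next 1257) and 8.33 CPM for Olr1 (replicate 4, next 18.1). Reads in a single macrophage library alone gave 0.196 CPM for Btla (replicate 2), 0.0953 CPM for Ccl17 (replicate 1), 0.582 CPM for Ccr6 (replicate 4), 0.0953 CPM for Cldn1 (replicate 1) and 0.0963 CPM for Clec4g (replicate 3). Other single macrophage libraries gave 0.0971 CPM for Cyp2s1 (replicate 4), 0.0953 CPM for Epcam (replicate 1), 0.0971 CPM for Grap2 (replicate 4), 0.770 CPM for H2-Oa (replicate 3) and 0.674 CPM for Pdcd1lg2 (replicate 3). Further single macrophage libraries gave 0.0980 CPM for Sept3 (replicate 2) and 0.582 CPM for Upb1 (replicate 4). A macrophage library stood above its group at 2749.7 CPM for B2m (replicate 2, next 2264), 195 CPM for Clec5a (replicate 3, next 169.8), 383 CPM for Cxcl2 (replicate 2, next 249.8) and 176 CPM for Fn1 (replicate 4, next 35.8). Further macrophage libraries stood above at 29.8 CPM for Fscn1 (replicate 1, next 23.1), 5.82 CPM for Il6 (replicate 4, next 1.64), 3.73 CPM for Kit (replicate 2, next 0.0963) and 0.770 CPM for Klrd1 (replicate 3, next 0.0980). Further macrophage libraries stood above at 404 CPM for Mef2c (replicate 3, next 364). A macrophage library stood below its group at 0.291 CPM for Ms4a8a (replicate 4, next 4.71). Replicate 3 of cDC2 was the high library for C6, Ccl22, Ccl8, Cyp2s1 and Kit.

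The cDC2 to macrophage difference differed between SS and MI (interaction term in edgeR, adjusted p under 0.05) for 69 of these genes. Each value below is the log2 difference in SS minus that in MI. The MI difference was not tested on its own. Among genes of opposite sign, some lay near 0 in MI, such as Clec9a (-0.13), Itgam (-0.10) and Tgfbi (0.097). Others lay farther off, such as Fcrl1 (-2.49) and Timd4 (3.03). Genes higher in SS cDC2 with a smaller difference after MI had values of 1.40 for Abcg1, 4.99 for Adam8, 1.91 for Adora2b, 3.53 for Aldh1a2, 1.59 for Bhlhe40, 1.72 for Ccl9, 2.20 for Ccne1 and 2.11 for Ccr2. Also in that set were 2.97 for Cd2, 4.42 for Cd300e, 1.01 for Cxcr4, 0.93 for Cycs, 4.06 for Grap2, 2.50 for Haao, 0.83 for Hmgcs1 and 2.02 for Itgax. Others of that set were 0.70 for Itgb2, 4.29 for Kcnn4, 1.81 for Lgals3, 3.44 for Ltb4r1, 1.06 for Mfsd7b, 1.61 for Ms4a4c, 2.05 for Nfil3 and 1.52 for Nr4a2. Also in that set were 0.81 for Pkm, 3.48 for Plac8, 2.16 for Plaur, 1.22 for S100a4 and 5.47 for Treml4. Genes higher in SS cDC2 with a difference of opposite sign after MI had values of 2.37 for Ccl6, 2.88 for Cd300lb, 5.56 for Clec9a, 5.28 for Fcrl1, 5.32 for Fn1, 1.20 for Itgam, 4.43 for Ms4a8a and 2.54 for Pparg. Also in that set were 1.51 for Psap, 0.98 for Slc48a1 and 3.83 for Vegfa. Genes higher in SS cDC2 with a larger difference of the same sign after MI had values of -1.35 for Ciita, -2.55 for F11r, -2.30 for H2-Ob, -4.91 for Kit and -3.79 for Trp53i11. Genes lower in SS cDC2 with a smaller difference after MI had values of -1.58 for Alox5, -1.66 for Clec5a, -1.49 for Hpgds and -0.84 for Tcf4. Genes lower in SS cDC2 with a difference of opposite sign after MI had values of -1.79 for Cd86, -1.56 for Cdc20, -2.93 for Galnt12, -1.22 for Tgfbi and -4.35 for Timd4. Genes lower in SS cDC2 with a larger difference of the same sign after MI had values of 1.70 for Adgre1, 1.78 for Apoe, 2.59 for Ccl7, 1.88 for Colec12, 3.29 for Cp, 2.51 for F13a1, 2.25 for Hmox1 and 5.68 for Slc15a2. Genes that did not pass in SS with a difference of opposite sign after MI had values of 5.07 for Chil3, 6.02 for Ly6c2, 2.32 for Lyz2 and 2.15 for Mpeg1. Genes that did not pass in SS with a larger difference of the same sign after MI had values of 1.94 for Cd36, 1.41 for Irf7 and 1.11 for Plin2.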

How the results depend on the processing

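Over all alternatives tried, the 4595 genes became 3220 to 4918, those higher in cDC2 1782 to 2673 and those lower 1438 to 2397, all within 1.5 times the reported counts. With each SS library left out in turn, 4001 to 4536 genes passed, and with each SS or MI library left out the genes whose difference changed with MI numbered 422 to 642, against 586. DESeq2 called 4860 genes and 801 changes with MI. Under upper-quartile scaling the median log2 difference of all genes was -0.132, and 2260 genes were higher and 2386 lower in cDC2. With the replicate numbers as a block, 4918 genes passed, though the labels do not say that a number marks a shared preparation. Of the genes named above, Xcr1 lost its call under this block (adjusted p = 0.0708), as in most other alternatives. Cd83 and Tnfaip3 gained one. No gene named above that passed changed its direction under any alternative. Genes near no difference did: Cd36 (0.062), Chil3 (-0.44), Lyz2 (-0.22) and Tlr2 (0.034) within libraries numbered 1 and 4, and Cd68 (0.017) within numbers 2 and 3. With a library left out, the range crossed 0 for Chil3 (-0.32 to 0.84), Clec4a2 (-0.11 to 0.10), Ctss (-0.12 to 0.12), Ly6c2 (-0.31 to 0.62), Lyz2 (-0.015 to 0.25), Plin2 (-0.11 to 0.032) and Tlr2 (-0.12 to 0.068). Folds of genes with few reads in 1 population are set by counting error. Of 50 simulated 2-fold changes, 40% were recovered, but with far fewer genes changed than passed in the data. Recovery at the share of changed genes seen here was not measured. Genes that did not pass may still differ. Among lists with a count of 0 in 1 direction, DESeq2 called 2 maturation genes and 1 endothelial gene lower in cDC2, and edgeR had 2 maturation, 1 endothelial and 1 T cell gene lower at an unadjusted p under 0.05. The cDC2, macrophage, classical monocyte, natural killer, cardiomyocyte, MHC class I, NF-kB and oxidative phosphorylation lists had 0 in that direction by both.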
